A study of Mus musculus with 1814 samples.

Results

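The 78 genes of mouse whose symbols are Mrpl or Mrps followed by a digit were followed through single germinal center B cells. They comprised 49 genes with symbols of the large subunit (Mrpl) and 29 with symbols of the small subunit (Mrps). They were chosen by symbol alone and present in both combined count tables, with symbols ending in -ps left out. The tables held 25125 genes in 965 cells of experiments 1, 3 and 4, and 15177 genes in 373 cells of experiment 5. No expression value entered the choice, though earlier results of these data were known when it was made. Every one of the 78 genes passed the filter on low counts in each test over experiments 1, 3 and 4.

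Each GEO sample was 1 index-sorted cell from lymph nodes, with libraries made by SmartSeq2, which reads whole transcripts and adds no molecular identifiers. Cells of experiments 1, 3 and 4 were labelled by zone, by Dec status and by time (12, 30, 46 or 60 h). Dec+ cells came from the dark zone (DZ), where germinal center B cells divide, or from the light zone (LZ), where they are selected, and Dec- cells came only from the light zone of experiment 1 at 12 h. The labels of these experiments gave no genotype. In experiment 5 the cells were KO, TA or WT, all Dec+, from both zones, with no time. The plates of experiment 5 were named for Ccnd3, the cyclin D3 gene, but what was altered in KO and TA cells was not stated, nor were the age, strain or number of the animals. Each cell also carried a cell cycle phase (G1, S or G2M) called by the authors from its expression.

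Mitochondria keep a small genome that encodes core subunits of the respiratory chain, and these are translated by a ribosome of their own. The proteins of that ribosome are encoded in the nucleus, made in the cytosol and imported. The large subunit forms peptide bonds and the small subunit binds and decodes the mRNA. Symbols do not always match position: in the human ribosome the protein encoded by MRPS18A sits in the large subunit, while its paralogs MRPS18B and MRPS18C sit in the small subunit.

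The promoters of the genes on which the results turn are printed here: Mrps18a and Mrpl51, the genes called between cell cycle phases, Ncapd2, a condensin subunit gene that starts head to head with Mrpl51, and the paralogs Mrps18b and Mrps18c. Each window runs from 250 bases before to 50 bases after a RefSeq start on GRCm38.p6, printed along the gene's own strand. The windows were chr17:46110754-46111053 (plus strand) for Mrps18a, chr6:125191950-125192249 (plus) for Mrpl51, chr6:125191537-125191836 (minus) for Ncapd2, chr17:35916391-35916690 (minus) for Mrps18b and chr5:100798509-100798808 (plus) for Mrps18c. Capitals mark matches on either strand to the motifs searched. These were CCGGAAG for ETS factors, GCATGCG for the core of the NRF1 motif and CACGTG for the E-box. The others were CCAAT, and TTTGAA or TTCGAA for the cell cycle homology region. Matches that overlap run together in capitals.
Mrps18a: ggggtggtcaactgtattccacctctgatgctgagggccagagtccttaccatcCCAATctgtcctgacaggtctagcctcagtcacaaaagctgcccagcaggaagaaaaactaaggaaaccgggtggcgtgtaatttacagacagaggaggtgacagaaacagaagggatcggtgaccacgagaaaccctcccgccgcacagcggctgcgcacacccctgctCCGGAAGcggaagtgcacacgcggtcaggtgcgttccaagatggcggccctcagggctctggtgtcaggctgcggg
Mrpl51: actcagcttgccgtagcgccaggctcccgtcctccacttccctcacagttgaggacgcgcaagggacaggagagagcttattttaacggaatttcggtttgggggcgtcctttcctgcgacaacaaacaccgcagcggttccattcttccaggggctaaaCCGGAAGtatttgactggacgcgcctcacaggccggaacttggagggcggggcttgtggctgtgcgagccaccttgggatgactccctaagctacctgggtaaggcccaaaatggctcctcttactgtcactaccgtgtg
Ncapd2: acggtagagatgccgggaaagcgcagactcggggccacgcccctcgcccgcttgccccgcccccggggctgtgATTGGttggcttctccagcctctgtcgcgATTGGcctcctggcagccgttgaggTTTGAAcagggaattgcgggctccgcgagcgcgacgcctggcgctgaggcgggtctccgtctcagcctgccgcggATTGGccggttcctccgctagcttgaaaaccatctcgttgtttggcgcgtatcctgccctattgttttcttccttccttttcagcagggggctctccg
Mrps18b: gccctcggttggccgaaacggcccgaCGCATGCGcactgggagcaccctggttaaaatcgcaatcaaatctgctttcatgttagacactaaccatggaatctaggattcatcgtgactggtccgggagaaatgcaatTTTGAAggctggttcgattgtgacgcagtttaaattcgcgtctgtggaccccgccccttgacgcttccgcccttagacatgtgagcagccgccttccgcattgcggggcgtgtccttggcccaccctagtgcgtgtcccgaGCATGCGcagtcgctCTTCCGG
Mrps18c: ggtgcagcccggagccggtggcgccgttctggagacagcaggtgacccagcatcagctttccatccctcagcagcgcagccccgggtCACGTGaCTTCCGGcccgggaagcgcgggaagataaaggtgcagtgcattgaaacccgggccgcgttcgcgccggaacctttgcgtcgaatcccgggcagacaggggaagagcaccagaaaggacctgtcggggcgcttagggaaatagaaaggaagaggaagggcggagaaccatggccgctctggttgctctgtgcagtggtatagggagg

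RefSeq windows were found for 69 of the 78 genes, in 75 windows, since a gene can have more than 1 start. The ETS letters stood in 34.7% of these windows and in 8.86% of all 32851 promoter windows. The NRF1 core stood in 10.7% of the windows of mitochondrial ribosomal genes against 3.58% of all. The letters CCAAT stood in 30 of the 75 windows against 37.4% of all, the cell cycle homology letters in 17.3% against 19.2%, and the E-box in 9.33% against 7.15%. Mrps18a and Mrpl51 both held the ETS letters and neither held the cell cycle homology letters, while Ncapd2 held those and 3 CCAAT boxes. In the GENCODE annotation Mrpl51 starts at chr6:125191801, outside its own window and inside that of Ncapd2. The contrast between the windows of Mrpl51 and Ncapd2 thus depends on the start used. All of these are matches of letters and say nothing of binding.

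The genes differed widely in level. Counts were summed over the cells of each experiment, time and zone, and given relative to the library total (CPM) or, to compare genes, as CPM per kilobase of the principal transcript. CPM of single genes in the level, zone, time and phase results of these experiments are scaled by TMM, edgeR's correction of library size. Marker sums and comparisons with no test are in CPM not scaled by TMM. Over 17 sums of Dec+ cells of experiments 1, 3 and 4, the level per length was highest for Mrpl18, at 213.5 ± 83.1 CPM per kilobase (SD, n = 17). Mrpl42 followed at 211.6 ± 97.5, Mrpl4 at 175.98 ± 59.9, Mrps18c at 165.6 ± 100.9 and Mrpl30 at 150 ± 54.3 CPM per kilobase. Each of these neighbours in the order differed by less than its spread over the sums. Over the 15 sums without experiment 1, Mrpl42 came first at 231.85 ± 84.4 CPM per kilobase and Mrpl18 second at 225.6 ± 80.8 (SD, n = 15), followed again by Mrpl4, Mrps18c and Mrpl30. The median gene had 53.1 and the lowest, Mrps25, had 9.43 CPM per kilobase. Not divided by length, the highest were Mrpl18 (260 CPM), Mrpl4 (226.7 CPM), Mrps7 (195.9 CPM), Mrpl40 (144.2 CPM) and Mrpl9 (142.1 CPM).

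**Figure D1:**
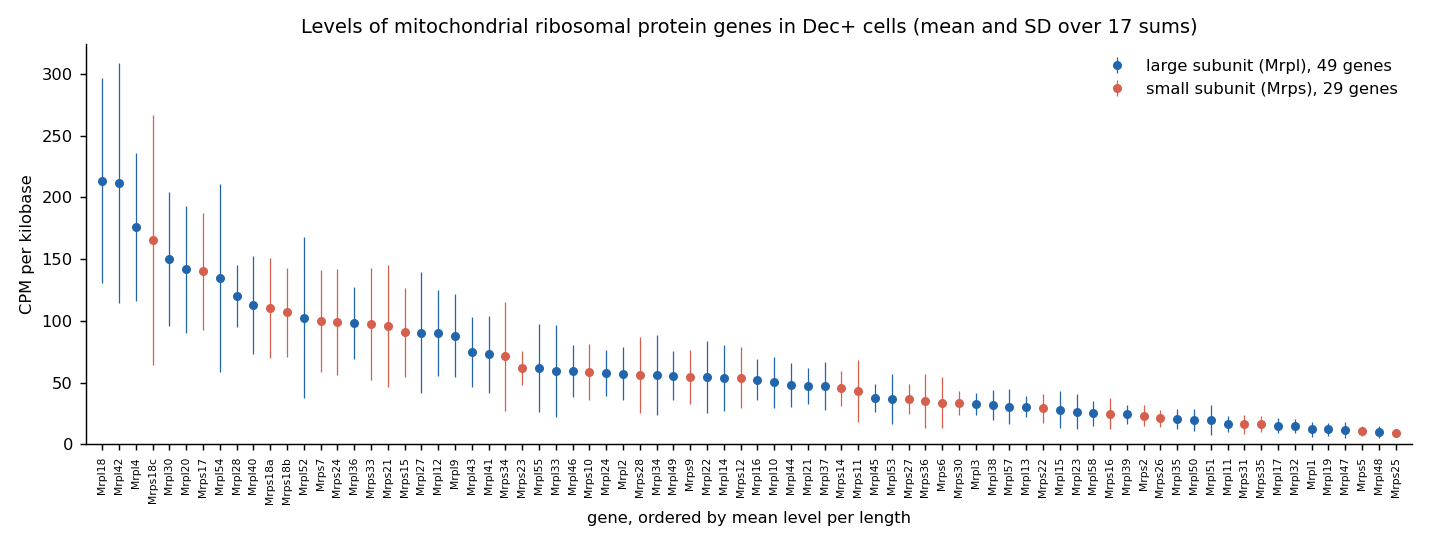
Level of each of the 78 genes in CPM per kilobase of transcript. Points give the mean and SD over 17 sums of Dec+ cells of experiments 1, 3 and 4. Colours follow the symbol (Mrpl or Mrps), which does not always match the place in the ribosome. Mrpl18 and Mrpl42 lead at 213.5 and 211.6 CPM per kilobase, and Mrps25 is last at 9.43. Without the 2 sums of experiment 1 the order of the first 2 turns, with 231.85 for Mrpl42 and 225.6 for Mrpl18.

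The experiments stood apart in depth, in the share of counts the genes took and in the share of cells that held them. For experiments 1, 3, 4 and 5 the median depth per cell was 417105, 210350, 292109 and 155485 counts, and the 78 genes together took 0.327%, 0.701%, 0.581% and 0.379% of the counts. The median gene had a count in 40.4%, 43.4%, 43.2% and 25.3% of the Dec+ cells with a zone in experiments 1, 3, 4 and 5. The depths and shares of counts include Dec- cells and cells without a zone. Experiment 1 was sequenced on a HiSeq and experiments 2 to 4 on a NextSeq instrument, per the design text. The levels, phases and light zone times, which use experiment 1, are given also without it. No well name was used more than once in the tables. All 11 markers of germinal center B cells were above 0 in every sum of experiments 1, 3 and 4 and every genotype group, while the 8 T cell markers summed to 64.03 to 207.4 CPM and the myeloid markers to 0 to 46.3 CPM over the 17 sums. A higher level of a gene in a sum cannot be told apart from more cells with the gene. As no animal was named, p-values measure the spread between sums of cells, which may be technical.

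Between phases, Mrps18a and Mrpl51 were higher in G2M cells than in G1 cells, and the other 76 genes were not called. The comparison used sums of at least 10 cells of an experiment, zone and phase, 6 in G2M, 6 in S and 5 in G1, with experiment and zone as a block. In experiment 3, Mrps18a had 196.5 CPM in G2M and 69.6 CPM in G1 cells of the dark zone, and 117.9 CPM in G2M and 64.2 CPM in G1 cells of the light zone. In experiment 4 it had 121.3 CPM in G2M and 42.3 CPM in G1 cells of the dark zone, and 113.4 CPM in G2M and 28.1 CPM in G1 cells of the light zone. In light zone cells of experiment 1 it had 45.9 CPM in G2M and 29.1 CPM in G1. The G2M sum was the higher one in all 5 pairs, and the groups overlapped only because the experiment 1 light zone sum was low. The dark zone of experiment 1 gave 157.2 CPM in G2M cells and had too few G1 cells for a sum. Mrps18a averaged 125.4 ± 50.2 CPM in G2M (SD, n = 6 sums) and 46.7 ± 19.4 CPM in G1 (n = 5 sums). Its log2 ratio was 1.39 ± 0.26 (SE), with an adjusted p of 0.0051 in edgeR's quasi-likelihood test with Benjamini-Hochberg adjustment over 11066 genes.

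Mrpl51 encodes a protein of the large subunit. In experiment 3 it had 143.3 CPM in G2M and 79.9 CPM in G1 cells of the dark zone, and 140.3 CPM in G2M and 43.3 CPM in G1 cells of the light zone. In experiment 4 it had 72.5 CPM in G2M and 32.2 CPM in G1 cells of the dark zone, and 70.9 CPM in G2M and 14.9 CPM in G1 cells of the light zone. In light zone cells of experiment 1 it had 28.6 CPM in G2M and 16.7 CPM in G1. All 5 pairs had the higher value in G2M, while the level differed so much between experiments that the groups overlapped. The log2 ratio was 1.25 ± 0.33 (SE), with an adjusted p of 0.043 in edgeR's quasi-likelihood test with Benjamini-Hochberg adjustment.

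The 2 called genes of 78 stand beside a background of 3.5% of all genes called higher and 1.2% called lower in G2M. The median log2 ratio of the 78 genes was 0.06, with 47 above 0, against -0.01 over all genes and -0.12 over the 79 cytosolic ribosomal protein genes tested. The paralogs of Mrps18a were not called in the same test, with log2 ratios of -0.16 for Mrps18b (adjusted p = 0.84) and -0.07 for Mrps18c (adjusted p = 0.97). The next largest ratios were those of Mrps6 (1.26 ± 0.68, adjusted p = 0.40), Mrps35 (0.83 ± 0.61, adjusted p = 0.59) and Mrpl55 (0.82 ± 0.51, adjusted p = 0.50). The lowest were those of Mrps31 (-0.91 ± 0.61), Mrpl57 (-0.70 ± 0.50), Mrpl47 (-0.59 ± 0.56) and Mrps2 (-0.45 ± 0.72).

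Both calls were lost without the block and without either larger experiment, and each was lost under further settings. Without the replicate block neither gene passed, with an adjusted p of 0.066 for Mrps18a and 0.57 for Mrpl51 in edgeR's quasi-likelihood test. Mrpl51 also lost its call with no filter (adjusted p = 0.052), with sums of at least 20 cells (0.22), with phases split by time (0.072) and with zones pooled (0.22), all in edgeR's quasi-likelihood test. Mrps18a lost its call with limma on the mean CPM per cell (adjusted p = 0.15). Over all 13 other settings the log2 ratio ranged from 0.91 to 1.62 for Mrps18a and from 0.98 to 1.48 for Mrpl51. Without experiment 3 the adjusted p was 0.14 for Mrps18a and 0.51 for Mrpl51, and without experiment 4 it was 0.24 for Mrps18a and 0.47 for Mrpl51. Without experiment 1, 4 genes passed in G2M (Mrpl18, Mrpl42, Mrpl51 and Mrps18a), beside 4.7% of all genes called higher and 1.64% lower. The difference of the G2M ratio between dark and light zone was not called for any of the 78 genes. It was 0.41 ± 0.54 for Mrps18a and -0.57 ± 0.69 for Mrpl51 (log2, dark minus light zone).

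**Figure D2:**
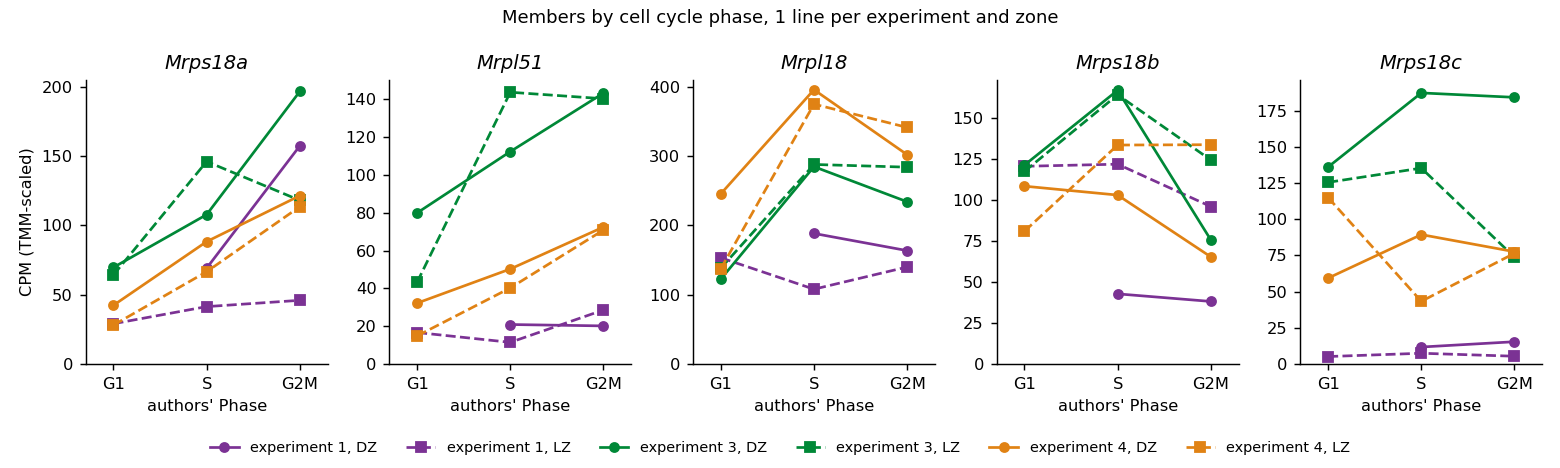
CPM of Mrps18a, Mrpl51, Mrpl18, Mrps18b and Mrps18c by cell cycle phase (G1, S, G2M), 1 line for each experiment and zone. Within each of the 5 blocks that have both phases, Mrps18a and Mrpl51 are higher in G2M than in G1.

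In S phase none of the 78 genes was called against G1, while 3.46% of all genes were called higher and 1.6% lower. At an unadjusted p under 0.05, 4 of the 78 genes were higher and 0 lower, beside 9.48% of all genes higher and 6.99% lower. DESeq2 called 2 of the 78, Mrpl18 and Mrps18a, beside 6.84% of all genes higher and 4.08% lower. The median log2 ratio was 0.12, with 50 of 78 above 0, against 0.03 over all genes. Mrps18a had 86.5 ± 36.7 CPM in S (SD, n = 6) and 46.7 ± 19.4 CPM in G1 (n = 5), a log2 ratio of 0.86 ± 0.26 with an adjusted p of 0.071 in edgeR's quasi-likelihood test. Its S sum was the higher one in 5 of 5 pairs.

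Mrpl18, the most abundant of the genes, showed the same order in the 2 larger experiments. In the dark zone it had 284.7 CPM in S and 122.5 CPM in G1 cells of experiment 3, and 395.7 CPM in S and 245.5 CPM in G1 cells of experiment 4. Its light zone sums had 287.9 CPM in S and 138.3 CPM in G1 cells of experiment 3, and 374.9 CPM in S and 137.5 CPM in G1 cells of experiment 4. In light zone cells of experiment 1 it had 107.9 CPM in S and 153.3 CPM in G1. So 4 of 5 pairs were higher in S and experiment 1 went the other way. The log2 ratio was 0.77 ± 0.24, with an adjusted p of 0.081 in edgeR's quasi-likelihood test.

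The size of the S phase result changed with the experiments used. The light zone block of experiment 1 had a median log2 ratio of -0.62 over the 78 genes, with 18 above 0. The other blocks had medians of 0.19 and 0.41 in dark and light zone cells of experiment 3, and 0.20 and 0.44 in dark and light zone cells of experiment 4. Without experiment 1, 5 of the 78 genes were called higher in S (Mrpl12, Mrpl13, Mrpl18, Mrpl51 and Mrps18a), beside 5.11% of all genes called higher and 2.09% lower, and the median was 0.38 with 63 above 0. Mrpl12 binds the mitochondrial RNA polymerase in human cells, besides its place in the large subunit. The S phase median of the 78 genes was 0.11 with 42 above 0 without experiment 3. It was 0.03 with 40 above 0 without experiment 4, and 0.0063 with 39 above 0 when zones were pooled. Cells in S and G2M were also deeper than those in G1: the median was 195244 counts in G1, 230892 in S and 211237 in G2M in experiment 3, and 246630 in G1, 327803 in S and 309991 in G2M in experiment 4. The part of depth in these ratios was not tested.

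Other markers moved with phase. Of 11 germinal center B cell markers, 5 were lower in S and 4 lower in G2M than in G1, and of 5 plasma cell markers tested 1, Xbp1, was lower in G2M (adjusted p = 0.038, edgeR's quasi-likelihood test). None of the 5 T cell markers or 4 myeloid markers tested was called in either phase. The part of these markers in the ratios was not tested.

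Experiment 5 gave values that the test had not used, with no replicate experiment and so no test. Over all its cells, Mrps18a had 13.3 CPM in G1, 40.6 CPM in S and 111.4 CPM in G2M. In the dark zone it had 70.3 CPM in G2M and 24.6 CPM in G1 KO cells, 147.96 CPM in G2M and 0.771 CPM in G1 TA cells, and 101.6 CPM in G2M and 8.68 CPM in G1 WT cells. The G1 value of TA cells rested on 3 counts. Among light zone cells, with 2 to 8 G2M cells a group, it had 50.8 CPM in G2M and 5.91 CPM in G1 KO cells, 89.6 CPM in G2M and 10.9 CPM in G1 TA cells, and 76.2 CPM in G2M and 36.9 CPM in G1 WT cells. G2M was thus the higher value in all 6 groups of genotype and zone.

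Mrpl51 was less uniform in experiment 5, with 24.0 CPM in G1, 55.8 CPM in S and 58.5 CPM in G2M over all cells. In dark zone KO cells it had 37.9 CPM in G2M and 38.3 CPM in G1, with overlapping 95% Poisson intervals of 29.5 to 47.8 and 33.9 to 43.1 CPM, which cover counting error only. In the other dark zone cells it had 50.8 CPM in G2M and 5.66 CPM in G1 TA cells, and 85.95 CPM in G2M and 9.94 CPM in G1 WT cells. Light zone KO cells had 48.96 CPM in G2M and 11.98 CPM in G1, and WT cells 71.3 CPM in G2M and 25.7 CPM in G1. Light zone TA cells went the other way, with 17.9 CPM in G2M (2 cells) and 84.8 CPM in G1 (12 cells). Over all 78 genes, 66 reached 20 CPM in G2M or G1, of which 3 were higher and 3 lower by a log2 ratio of 1 or more, against 11.5% higher and 15% lower among all genes. In S, 11 of 69 were higher and 1 lower, against 12.5% higher and 13% lower among all genes. The median log2 ratio was 0.28 in S and 0.28 in G2M. These sums pool genotypes that differ in phase, since 77.4% of dark zone KO cells were in G1. In dark zone KO cells the 78 genes took 0.399% of the counts in S (2 cells) and 0.319% in G1, in TA cells 0.463% in S and 0.346% in G1, and in WT cells 0.432% in S and 0.375% in G1. In G2M they took 0.283% in KO, 0.426% in TA and 0.406% in WT cells of the dark zone. There the G2M share was above that of G1 in TA and WT cells and below it in KO cells. The order turned in light zone KO cells, with 0.421% in G2M (7 cells) and 0.277% in G1. It also turned in light zone TA cells, with 0.334% in G2M (2 cells) and 0.389% in G1. Light zone WT cells kept it, with 0.397% in G2M and 0.379% in G1. The cytosolic ribosomal protein genes had pooled medians of -0.39 in S and -0.20 in G2M. Within genotype they took 8.28% of the counts in S and 6.68% in G1 dark zone KO cells. Dark zone TA cells had 3.78% in S and 3.67% in G1, and WT cells 4.76% in S and 4.43% in G1. Light zone KO cells had 6.47% in S and 5.92% in G1. The share was lower in S in light zone TA cells (3.84% in S, 5.05% in G1) and WT cells (3.98% in S, 4.71% in G1). So the pooled direction in S was seen in light zone TA and WT cells only. A share of summed counts is another measure than a median of ratios.

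Many of these genes share a start region with another gene. In GENCODE, 33 of the 78 (42.3%) started within 1000 bases of a protein-coding gene on the opposite strand that runs the other way, against 10.9% of all 21924 protein-coding genes. The kit is not stated to mark strand, so reads in overlapping stretches cannot be told apart. Mrpl51 and Ncapd2 start 100 bases apart and do not overlap in GENCODE. Ncapd2, which helps to compact chromosomes for mitosis, had 356.8 ± 151.3 CPM in G2M (SD, n = 6) and 25.2 ± 7.66 CPM in G1 (n = 5), a log2 ratio of 3.53 ± 0.23 with an adjusted p of 2.19e-07 in edgeR's quasi-likelihood test. Human NCAPD2 is on the list of G2M genes distributed with Seurat, so this ratio may not be independent of the phase calls.

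In the other pairs with a called partner, the mitochondrial ribosomal protein gene was not called. Of 27 such partners tested, 3 were called higher in G2M (Ncapd2, Eme1 and Ska3) and 1 lower (Fau). Mrpl57 starts 49 bases from Ska3, a gene of the kinetochore, which had a log2 ratio of 4.02 in G2M (adjusted p = 0.043, edgeR's quasi-likelihood test), while Mrpl57 had -0.70 (adjusted p = 0.57). Mrpl27 overlaps Eme1, a DNA repair nuclease gene, at their starts. Eme1 had a log2 ratio of 6.60 in G2M (adjusted p = 0.00086) and Mrpl27 had 0.26 (adjusted p = 0.85) in edgeR's quasi-likelihood test. The Mrps18a locus overlaps Rsph9 on the opposite strand by 6876 bases, but Rsph9 was at 0 in 13 of 17 sums. In CPM not scaled by TMM, Rsph9 reached at most 1.73 CPM, against at least 24.7 CPM for Mrps18a.

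**Figure D3:**
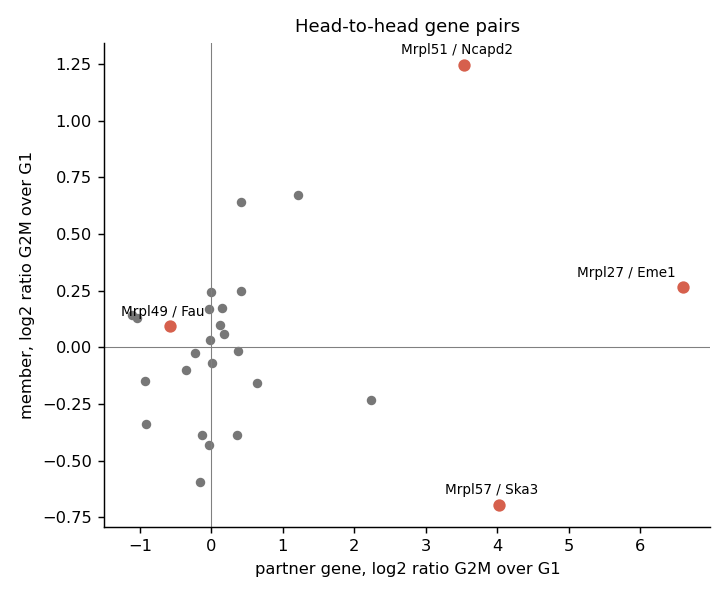
Log2 ratio of G2M over G1 of the partner gene (horizontal axis) and of the mitochondrial ribosomal protein gene that starts head to head with it (vertical axis), 1 point a pair, with pairs coloured and named where either gene has an adjusted p under 0.05. Ncapd2, Ska3 and Eme1 lie far to the right, and of the genes paired with them only Mrpl51 was called.

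Between zones the 78 genes showed no called difference. The comparison paired dark and light zone sums of the same experiment and time, 7 pairs from experiments 3 and 4. None of the 78 was called in edgeR's quasi-likelihood test, beside 0.178% of 10669 genes called higher in the dark zone and 0.131% called lower. At an unadjusted p under 0.05, 1 of the 78 was higher and 2 lower, beside 6.54% of all genes higher and 2.68% lower. DESeq2 called 0 of the 78, beside 3.19% of all genes higher and 1.48% lower. The median log2 ratio was -0.02 with 37 above 0, against 0.24 over all genes and -0.02 over the cytosolic ribosomal protein genes. Leaving out genes that averaged under 20 CPM, none of them among the 78, the median over all genes was 0.11. The pooled median of the 78 genes stood for times that went apart. At 12 h it was -0.31 in experiment 3 and -0.20 in experiment 4, with 22 and 30 of 78 above 0. Later medians were 0.27, 0.31 and 0.23 at 30, 46 and 60 h in experiment 3, and 0.04 and -0.26 at 30 and 46 h in experiment 4. Of the 11 germinal center B cell markers, 2 were called higher in the dark zone and 0 lower. Their log2 ratios were above 0 for 7 markers and below 0 for 4. Gcsam, a signalling adaptor of these cells, was 1 of the 2 called (adjusted p = 0.014, edgeR's quasi-likelihood test).

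Mrps35 had the largest zone ratio. It had 58.4, 87.6 and 123.6 CPM (lowest, median and highest of 7 sums) in the dark zone, against 20.6, 45.7 and 65.97 CPM in the light zone. It was higher in the dark zone in 7 of 7 pairs, and the groups overlapped slightly across experiments and times. The log2 ratio was 0.92 ± 0.31 (SE), with an adjusted p of 0.35 in edgeR's quasi-likelihood test, so it failed the correction. Its range over the other settings was 0.82 to 1.01.

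On the other side stood Mrps7 and Mrpl52. Mrps7, a protein of the head of the small subunit, had 114.1, 172.99 and 242.1 CPM in the dark zone (lowest, median and highest of 7 sums) and 155.3, 278.1 and 400.4 CPM in the light zone. Its log2 ratio was -0.55 ± 0.18 with an adjusted p of 0.37, lower in 6 of 7 pairs. Mrpl52 had 15.7, 41.8 and 69.98 CPM in the dark zone and 21.7, 71.3 and 92.04 CPM in the light zone. It was lower in the dark zone in 7 of 7 pairs, with a log2 ratio of -0.76 ± 0.31 and an adjusted p of 0.49 in edgeR's quasi-likelihood test. The zone groups of both genes overlapped.

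Over time, Dec+ cells at 30, 46 and 60 h were compared with those at 12 h within each zone, with experiment as a block. None of the 78 genes was called at any time, beside 0% of 11662 genes called in the dark zone and in the light zone at 30 h. In the light zone at 46 h 0.0343% of all genes were called higher and 0.437% lower. In the dark zone the median log2 ratio of the 78 genes was 0.22 at 30 h with 54 above 0, 0.53 at 46 h with 70 above 0, and 0.16 at 60 h with 46 above 0. The median over all genes was 0.01, -0.01 and 0.03 at these times. The cytosolic ribosomal protein genes had medians of 0.22, 0.79 and 0.20. The 46 h median was 0.37 within experiment 3 and 0.66 within experiment 4, so it was above 0 in both, with n = 2 sums a time.

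At an unadjusted p under 0.05, 6 of the 78 genes were higher at 46 h in the dark zone and 0 lower, beside 2.61% of all genes higher and 1.70% lower. DESeq2 called 0 of the 78, beside 0.789% of all genes higher and 0.377% lower. Mrps18c had 159.1 and 222.4 CPM at 46 h, against 51.7 and 118.4 CPM at 12 h in the dark zone, a log2 ratio of 1.26 ± 0.43 that did not pass (adjusted p = 1, edgeR's quasi-likelihood test). Mrpl53 had 38.3 and 54.6 CPM at 46 h against 11.3 and 16.5 CPM at 12 h, a log2 ratio of 1.81 ± 0.87 (adjusted p = 1). Mrpl35 had 74.2 and 145.1 CPM at 46 h against 39.6 and 50.8 CPM at 12 h, a log2 ratio of 1.23 ± 0.55 (adjusted p = 1). The 46 h sums of these genes did not overlap those of 12 h, as was the case for 29.4% of all genes with n = 2 each.

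The share of counts of the 78 genes in the dark zone of experiment 3 was 0.618% at 12 h, 0.642% at 30 h, 0.764% at 46 h and 0.711% at 60 h. In experiment 4 it was 0.497%, 0.585%, 0.673% and 0.511% at the same times. Both experiments had their highest share at 46 h. The share of G1 cells moved as well, being 60.5% at 12 h, 40.3% at 30 h, 27.4% at 46 h and 26.1% at 60 h in the dark zone of experiment 3. In experiment 4 it was 41.8%, 22.4%, 24.1% and 32.1% at these times, lowest at 30 h. Its part in the ratios was not tested.

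In the light zone the median log2 ratio was -0.14 at 30 h with 28 of 78 above 0, and 0.27 at 46 h with 54 above 0, against -0.10 and -0.30 over all genes. The latter medians include weakly expressed genes. Among those averaging at least 20 CPM, as 77 of the 78 did, they were -0.02 at 30 h and -0.07 at 46 h. For the 78 genes the experiments went apart at both times. Their median at 30 h was -0.45 in experiment 3 and 0.07 in experiment 4. At 46 h it was -0.15 in experiment 3 and 0.67 in experiment 4. Without experiment 1 the medians were -0.07 at 30 h and 0.35 at 46 h. Mrpl27, a protein of the large subunit, had 124.4 and 140.9 CPM at 46 h, against 13.9, 30.2 and 74.3 CPM at 12 h. Its groups did not overlap, as for 22.3% of all genes, and its log2 ratio of 1.45 ± 0.47 had an adjusted p of 0.20 in edgeR's quasi-likelihood test. DESeq2 called it, with an adjusted p of 0.013, while the adjusted p over the other settings was 0.13 to 0.41. Without experiment 1 its log2 ratio was 1.46. The difference between the zones in the 46 h ratio was called for 0 of the 78 genes.

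**Figure D4:**
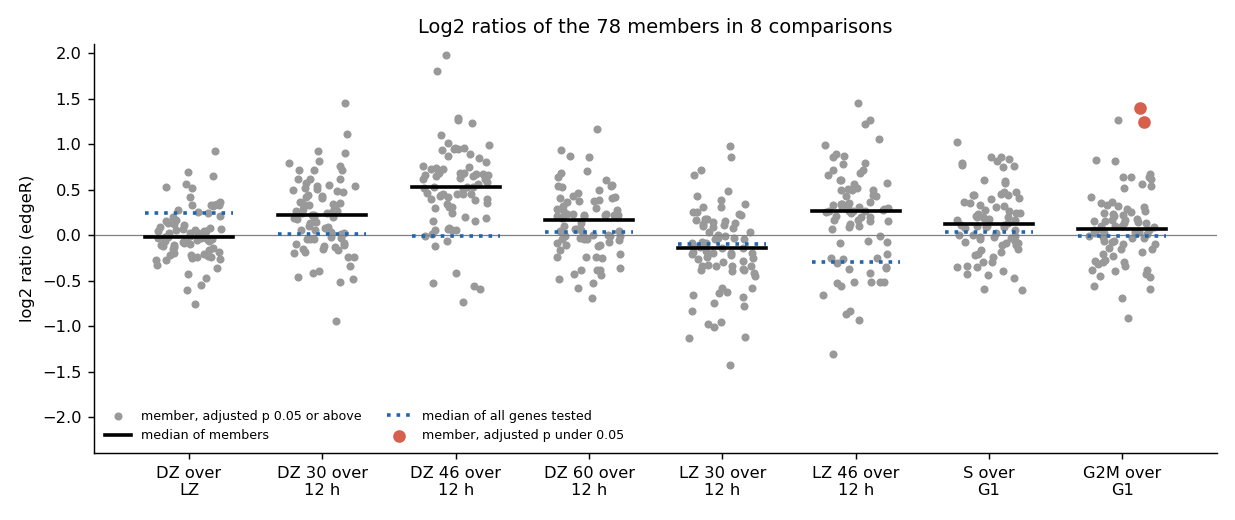
Log2 ratios of the 78 genes in the 8 tested comparisons, 1 point a gene, with called genes coloured, the median of the 78 as a solid line and that of all genes tested as a dotted line. The medians of the 78 lie between -0.14 and 0.53, the highest being 46 over 12 h in the dark zone.

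Across genotypes there was 1 experiment, so ratios are given with no test, and called means a log2 ratio of 1 or more in size with 20 CPM in either group and 1 CPM added. Ccnd3 itself had 89.3 CPM in KO, 287.3 CPM in TA and 477 CPM in WT cells of the dark zone. Light zone cells had 78.6 CPM in KO, 118.9 CPM in TA and 350.01 CPM in WT cells. On each of the 4 plates it was lower in KO than in WT cells in both zones.

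In the dark zone the 78 genes took a lower share of the counts in KO than in WT cells. They took 0.314% of the counts in 62 KO cells and 0.400% in 82 WT cells. By plate the share was 0.336%, 0.262%, 0.320% and 0.325% in KO cells, against 0.425%, 0.390%, 0.428% and 0.363% in WT cells. Every KO plate was below every WT plate, while plates of 1 experiment are not replicates. Of 66 genes measured, 2 were higher and 14 lower by a log2 ratio of 1 or more, against 11.6% higher and 15.9% lower among all genes, and the median log2 ratio was -0.39 with 18 above 0, against -0.16 over all genes. The cytosolic ribosomal protein genes went the other way, with a median of 0.68 and 76 of 77 above 0.

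Mrpl28, of the large subunit, had the lowest KO ratio. It had 21.2, 5.28, 9.61 and 11.7 CPM on the 4 plates of dark zone KO cells, against 31.6, 70.4, 40.4 and 99.5 CPM in WT cells. All KO plates were below all WT plates, and the log2 ratio was -2.28. Mrpl47 had 10.8 CPM in KO and 43.2 CPM in WT cells, a log2 ratio of -1.90, but was higher in KO cells on 1 of 4 plates. The highest was Mrpl52, with 58.4, 22.9, 55.9 and 29.6 CPM on the plates of KO cells and 11.001, 9.97, 13.04 and 12.8 CPM on those of WT cells, a log2 ratio of 1.78.

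Other measures moved with the KO label too. In the dark zone 77.4% of KO cells and 46.3% of WT cells were in G1. Within G1 the share of the 78 genes was 0.319% in KO and 0.375% in WT cells, within S it was 0.399% in KO (2 cells) and 0.432% in WT cells, and within G2M it was 0.283% in KO and 0.406% in WT cells. The median percent of mitochondrial counts was 10.8% in KO and 6.93% in WT cells of the dark zone. The 7 T cell markers present of 8 summed to 397 CPM in KO and 103.9 CPM in WT cells, with plates at 192.8 to 717 CPM in KO and 86.5 to 126.1 CPM in WT cells. The 5 myeloid markers present summed to 22.5 CPM in KO and 2.11 CPM in WT cells. The 5 plasma cell markers present of 6 summed to 5585 CPM in KO and 2566 CPM in WT cells, with plates at 2628 to 11082 CPM in KO and 1734 to 3406 CPM in WT cells. The part of these measures in the ratios was not tested.

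In light zone KO cells the share was 0.317%, against 0.377% in WT cells, and it was lower in KO cells on 4 of 4 plates. Of 66 genes 4 were higher and 9 lower, against 18.3% higher and 16.6% lower among all genes, with a median log2 ratio of -0.20. By plate the median was -0.35, 0.04, -0.38 and 0.07. The order differed by phase: the share was 0.277% in KO and 0.379% in WT cells in G1, 0.406% in KO (9 cells) and 0.370% in WT cells in S, and 0.421% in KO (7 cells) and 0.397% in WT cells in G2M. Mrps18a had 14.6 CPM in KO and 47.4 CPM in WT cells there, and was lower in KO cells on 4 of 4 plates. There, 73.8% of KO and 36.6% of WT cells were in G1. The myeloid markers summed to 65.7 CPM in KO and 0 CPM in WT cells, and the plasma cell markers to 3448 CPM in KO and 1459 CPM in WT cells.

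In TA cells of the dark zone the ratios to WT cells were spread about 0. Their median log2 ratio was 0.04 over 66 genes, with 3 higher and 4 lower, against 8.12% higher and 10.2% lower among all genes. The share was 0.427% in TA cells and 0.400% in WT cells, although 22.8% of TA cells and 46.3% of WT cells were in G1. The 22 light zone TA cells gave a median of 0.31 over 68 genes, with 10 higher and 10 lower, against 19.1% higher and 23.5% lower among all genes. By plate, with 3 to 7 TA cells each, the median was -0.63, -3.57, -0.48 and 0.23, so that 3 of 4 plates went the other way by this measure. The share did not follow it on plate 2, which had 3 TA cells. By plate the share was 0.374%, 0.349%, 0.394% and 0.472% in TA cells, against 0.414%, 0.307%, 0.460% and 0.387% in WT cells. It was lower in TA cells on plates 1 and 3 and higher on plates 2 and 4. That TA and KO ratios differ was not tested, and both share the WT cells.

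**Figure D5:**
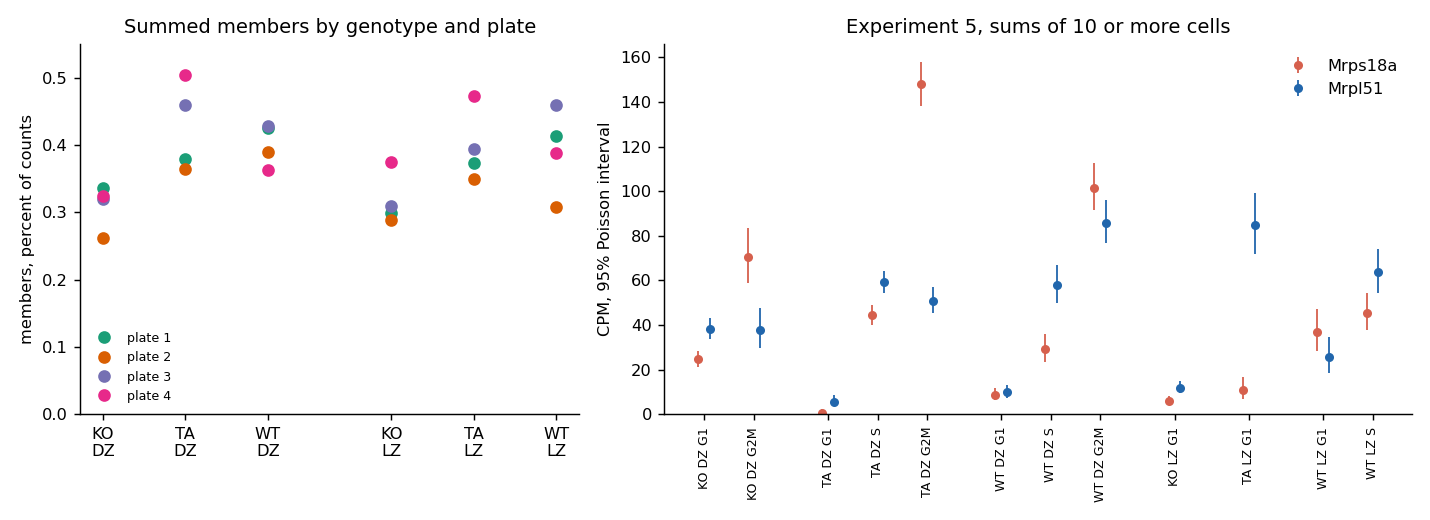
Left, percent of counts taken by the 78 genes, 1 point for each plate of experiment 5, by genotype and zone. Right, CPM of Mrps18a and Mrpl51 with 95% Poisson intervals in sums of 10 or more cells of a genotype, zone and phase. In the dark zone the 4 KO plates lie at 0.262% to 0.336%, all below the 4 WT plates.

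Dec+ cells were set against Dec- cells in the light zone of experiment 1 at 12 h, over 3 plates, with no test. Of 60 genes measured, 18 were higher and 5 lower in Dec+ cells by a log2 ratio of 1 or more, against 17.7% higher and 13.3% lower among all genes. The median log2 ratio was 0.22, against 0.07 over all genes. By plate the median was -0.09, 1.13 and 0.25, so that 1 plate went the other way. Taking the mean of each cell's CPM in place of the sum left 6 higher and 0 lower. The share of all genes under that measure is not given, so these counts cannot be set against a background.

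Mrps2, of the small subunit, had 32.1, 31.3 and 117.7 CPM on the 3 plates in Dec+ cells, against 16.2, 7.27 and 13.2 CPM in Dec- cells. Every Dec+ plate was above every Dec- plate. Mrpl47 had 59.2, 52.2 and 7.92 CPM in Dec+ cells, against 0.710, 4.19 and 6.53 CPM in Dec- cells, a log2 ratio of 3.31 that the third plate hardly showed. Mrpl33 had 3.18 CPM in Dec+ and 20.5 CPM in Dec- cells, which rested on 1 plate of Dec- cells at 43.6 CPM. Phase differed as well, with 42.2% of Dec+ cells and 58.8% of Dec- cells in G1. Within G1 the share of the 78 genes was 0.403% in Dec+ and 0.242% in Dec- cells, but within S it was 0.309% in Dec+ and 0.380% in Dec- cells and within G2M 0.279% in Dec+ and 0.288% in Dec- cells, of which there were 8. The germinal center B cell markers summed to 5976 CPM in Dec+ and 9497 CPM in Dec- cells, with 0 of 11 higher in Dec+ cells, and their part was not tested. A set of wells labelled PB gave a median log2 ratio of 0.11 over 56 genes against the other dark zone wells, with 10 higher and 10 lower, against 20.5% higher and 21.7% lower among all genes.

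The rest of the mitochondrial translation machinery gave no calls in zone or phase. Of the proteins of the same ribosome with other symbols, 6 of 8 were tested, of assembly factors 24 of 28, of translation factors 14 of 14, and of regulators of mitochondrial biogenesis 15 of 17, with 0 called by edgeR's quasi-likelihood test. At an unadjusted p under 0.05 the counts in G2M were 1, 1, 2 and 1 for these lists, and in S they were 1, 2, 0 and 2, beside 15.4% of all genes in G2M and 16.5% in S. Between zones they were 0, 0, 0 and 3, the 3 being lower in the dark zone, beside 9.22% of all genes. Their median log2 ratios in S were 0.25, 0.21, 0.28 and 0.33, and in G2M 0.09, -0.22, 0.07 and 0.12. Dap3, a GTP-binding protein of the small subunit, had log2 ratios of 0.60 in S (adjusted p = 0.19) and 0.65 in G2M (adjusted p = 0.18) in edgeR's quasi-likelihood test.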

How the data were processed

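The data were SmartSeq2 libraries of single mouse cells in 96-well plates. The deposited tables hold the authors' expected counts per gene and cell, with no normalization. Tools named in the submitters' processing notes were Seurat 3.1.4, RSEM 1.3.1 and STAR 2.6, with mm10 as the build. The Phase, zone flags and percent of mitochondrial counts are the authors' deposited annotation. The gene list behind Phase is not given in the sources used here; a list distributed with Seurat holds the human ortholog of Mrpl36, so the phase values of Mrpl36 (log2 ratios of -0.24 in S and -0.39 in G2M) may not be independent of Phase.

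Cells were grouped by GEO's labels; 10 cells without a zone entered no comparison, and 255 columns of per-sample values that matched no sample, those of experiment 2, were not used. Dark zone cells of experiment 1 were taken at the 30 h of their labels, where a column of the deposited cell table gives another time. Expected counts were rounded and summed over at least 10 cells of an experiment, time and zone, or experiment, zone and phase. Sums were tested with edgeR 4.0.16 (quasi-likelihood, TMM, filterByExpr, R 4.3.3), with experiment and time, experiment and zone, or experiment as a block and Benjamini-Hochberg adjustment over all genes at 0.05. Sums of the same block deviated together from their group means, with a correlation of 0.115 to 0.423 over 7 pairs of zones and 0.128 to 0.651 over 16 pairs of phases; the block comes from the labels' experiment. The tests were checked on simulated counts. In comparisons within 1 experiment the ratio of summed CPM was used with 1 CPM added. Totals per sum and the number of cells limit the precision, and intervals cover counting error only, since SmartSeq2 reads are not independent molecules. Python 3.11.15, limma 3.58.1 and DESeq2 1.42.0 served the rest.

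Gene coordinates, lengths and neighbours came from GENCODE vM21 on GRCm38, promoters from RefSeq on GRCm38.p6. The 78 genes and the other lists were chosen with earlier results of these data known. Named are genes past the threshold, the 5 highest and 5 lowest ratios of a comparison (mean of at least 20 CPM), of which some are given, and the 5 highest levels; further genes were chosen after their values were seen. Alternatives were DESeq2, DESeq2's size factors, no filter, a filter at a mean of 20 CPM, no block, sums of at least 20 cells, limma on the mean CPM per cell, leaving out cells marked for both zones or 1 experiment, the tables per plate, zones within phase, phases split by time and zones pooled.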

Additional observations from a re-analysis of the deposited data

Results flagged for a closer look

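Of 24 groups of 4 to 10 sums tested for a single sum far from the others, 1 was marked, and chance marks about 1 in 20. In G1 cells, the dark zone sum of experiment 4 had 245.5 CPM of Mrpl18, far above the next highest G1 sum at 153.3 CPM. The S phase sum of the same block, at 395.7 CPM, was also the highest of its phase.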

How the results depend on the processing

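Of the counts and medians under other settings, 32 moved, besides 11 medians of the dark zone at 30 h. Of the values of single genes and the other medians of tested comparisons, 966 were marked the same, 16 changed sign, 8 became called and 11 lost the call. Such a median was marked the same where it moved by less than its spread over blocks. No gene of the 78 was called between zones under any of 12 settings.

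In S over G1, with none called in the reported fit, DESeq2 called 2, the filter at a mean of 20 CPM 2, sums of at least 20 cells 1, limma on mean CPM per cell 3 and phases split by time 1, and leaving out 1 experiment gave 0 to 5. In G2M over G1, with 2 called, no filter, sums of at least 20 cells, limma, phases split by time and zones pooled each left 1, and leaving out 1 experiment gave 0 to 4. Without the replicate block 0 were called in G2M, and the pairing of sums through the block changed no other call. In the light zone at 46 h DESeq2 called 1 of the 78, Mrpl27, beside 1.52% of all genes higher and 7.53% lower. No fit with at least 20 cells could be made there. For 30 over 12 h in the dark zone the median of 0.22, whose spread over blocks was small, moved to 0.22 with DESeq2 and with its size factors, 0.25 with no filter, 0.23 with the CPM filter, 0.01 without the replicate block, 0.26 with at least 20 cells, 0.16 with limma, 0.18 without cells marked for both zones, and 0.19 to 0.21 leaving out 1 experiment. DESeq2's size factors changed the sign of no median of the 78 genes. Such medians changed sign elsewhere. Between zones, the median of -0.02 was 0.02 with limma and 0.08 without experiment 4. In the light zone, that of -0.14 at 30 h was 0.06 without the replicate block and 0.08 without experiment 3, and that of 0.27 at 46 h was -0.11 without experiment 4. In G2M, that of 0.06 was -0.04 without the block, with at least 20 cells and with zones pooled, -0.02 without experiment 3 and -0.10 without experiment 4.

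Ratios with no test moved more. Their counts under other settings are given here without the share of all genes, so they cannot be set against a background. For Dec status the mean CPM per cell gave 6 higher and 0 lower, TMM scaling 8 lower, and leaving out 1 plate 6 to 10 lower. For KO over WT in the dark zone a pseudocount of 5 CPM and the mean CPM per cell each gave 1 higher, and leaving out 1 plate 1 to 3. In the light zone leaving out 1 plate gave medians of -0.48 to -0.060, 4 to 7 higher and 6 to 15 lower. For TA over WT in the dark zone TMM scaling gave 5 higher and 2 lower, and leaving out 1 plate 3 to 6 higher and 3 to 7 lower. In the light zone leaving out 1 plate gave 10 to 17 higher and 11 to 16 lower.

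Changes of sign, each in a ratio that was not called, were these. Without cells marked for both zones Mrpl3 had 0.011 at 46 h in the dark zone. Over the fits that left out 1 experiment, the dark zone at 60 h gave -1.001 to 0.31 for Mrps9, -1.21 to 0.32 for Mrps6 and -0.0082 to 1.92 for Mrpl34. The light zone at 30 h gave -3.76 to 0.24 for Mrps6, -0.10 to 1.90 for Mrpl1 and -0.65 to 1.41 for Mrpl14, and at 46 h -2.70 to 0.73 for Mrpl51. The dark zone gave -1.04 to 0.16 for Mrpl55 at 30 h and -1.81 to 0.24 for Mrps2 at 46 h. In G2M, Mrps2 ranged over -1.37 to 0.52, and Mrps35 had -0.073 with at least 20 cells and -0.074 with phases split by time. In S, Mrps31 had 0.0073 with limma and -1.06 to 0.015 leaving out 1 experiment, and Mrps12 had 0.017 with phases split by time. The cause was not tested in any of these.

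Few sums limit the tests: times had 2 or 3 sums each, and the dark zone of experiment 1 had no G1 sum. Genotype, Dec status and PB wells came from 1 experiment each.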

Other observations

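Experiment 1 held the shorter genes of the set at very low levels. Of the 78 genes, 36 had less in every sum of experiment 1 than in any sum of experiments 3 and 4. Levels in this paragraph are in CPM not scaled by TMM. The principal transcripts of these 36 had a median length of 867 bases, against 1660 bases for the other genes. Mrps21 averaged 2.22 CPM in experiment 1 and 48.7 CPM in experiments 3 and 4, and Mrps18c averaged 8.56 CPM in experiment 1 and 120 CPM in the others. Across the 78 genes the log2 ratio of experiment 1 over the others went with transcript length with a Spearman rho of 0.59, and across 6080 genes with a rho of 0.53. These are correlations across genes that share libraries and depth, and genes are not independent replicates.

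Transcript length also went with the 46 over 12 h ratio in the dark zone, with a rho of -0.29 over the 78 genes and -0.23 over 11060 genes. The 39 shorter genes had a median log2 ratio of 0.65 there and the 39 longer ones 0.46, with a median of -0.01 over all genes of any length. The part of length in the ratios was not tested.

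Twnk, which encodes the helicase of the mitochondrial genome and overlaps Mrpl43 by 780 bases on the opposite strand, had a log2 ratio of 2.24 in G2M over G1 (adjusted p = 0.069, edgeR's quasi-likelihood test), while Mrpl43 had -0.23 (adjusted p = 0.80). Of the left-out symbols ending in -ps, Mrpl23-ps1 reached 150.6 CPM in a sum, so reads of Mrpl23 and this copy may not be told apart. The 4 cells of experiment 5 without a zone took 0.201% of their counts in the 78 genes, and the 6 such cells of experiment 3 took 0.840%.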
